A study of Mus musculus with 24 samples.

Results

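LSK cells of IRE1_KO_ITD mice, which carry both lesions of the study, were set against LSK cells of WT mice. LSK cells are bone marrow cells that lack the surface markers of mature blood lineages and carry Sca1 and Kit, the fraction that holds blood stem cells and early multipotent progenitors. The comparison used 6 of the 24 libraries of the series and asked which genes stay away from their wild type level when both lesions are present. Its members are the genes that reached at least 1 FPKM (fragments per kilobase of transcript, scaled to library size) in at least 3 of these 6 libraries, 11464 of the 23991 gene symbols in each file.

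The 4 genotypes had 3 LSK libraries each, all from C57BL/6 bone marrow. IRE1_KO_ITD mice carried Ern1 fl/fl alleles, Vav-Cre, and the Flt3-ITD allele. ITD mice carried Flt3-ITD alone, and IRE1_KO mice carried Ern1 fl/fl alleles and Vav-Cre. WT mice are given neither a Cre nor a floxed allele by the labels, so an effect of Vav-Cre itself cannot be told apart from that of Ern1 loss here. Vav-Cre is a recombinase driven by regulatory elements of Vav, a gene of blood cells, so the deletion is meant for blood cells and not for the marrow stroma around them. The labels do not say whether the 3 libraries of a group came from separate animals, and the p-values then measure only the spread between these libraries.

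IRE1, the product of Ern1, is a stress sensor in the membrane of the endoplasmic reticulum (ER). On activation it splices Xbp1 mRNA, and the spliced form encodes a transcription factor that drives genes for protein import, folding and disposal in the ER. Flt3 is a receptor kinase of early progenitors, and its internal tandem duplication (ITD), a frequent lesion of acute myeloid leukaemia, signals without ligand and activates STAT5.

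Summed FPKM in the 6 libraries ran from 510361 to 543663, between 11175 and 11394 genes reached 1 FPKM, and relative depth, estimated from the lowest values, was 0.974 to 1.22. Correlations across genes between libraries of a group were 0.951 to 0.959 in IRE1_KO_ITD and 0.947 to 0.958 in WT. By Xist and Y-linked genes, IRE1_KO_ITD library 3 and WT library 1 were female and the other 4 were male, while all 3 ITD libraries were female. ITD library 1 stood apart from ITD libraries 2 and 3 (correlations of 0.945 and 0.946, against 0.966 between those), and several values from the ITD group are therefore also given without it. The 3 IRE1_KO files carry a header tag, 1ng, that no other LSK file has, and in them the short locus Mir6236 took 0.175% to 0.904% of summed FPKM, while it took 4.41% to 6.24% in LSK libraries of other genotypes. What is said of IRE1_KO cells cannot be told apart from that difference. Values were fitted as log2(FPKM + 1) with limma, in which a fold change understates that of low genes, and a gene is called where the Benjamini-Hochberg adjusted p is under 0.05. Changes and values in parentheses after a gene name are log2 fold changes of IRE1_KO_ITD over WT unless another is named. The error after a mean FPKM is the SD and that after a log2 fold change is the SE, with n = 3 libraries a group, listed from library 1 to 3. Positions are those of the RefSeq annotation of mm10.

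IRE1_KO_ITD cells differed from WT cells in 5124 of the 11464 genes, or 44.7%. Of these, 3641 rose (31.8%) and 1483 fell (12.9%). Of the 11084 genes that reached 1 FPKM in both groups, 3490 rose and 1286 fell. Counts of list members below are to be read beside these, and a list near them is not set apart from all genes. The call held under all 15 other settings for 2262 genes that rose (19.7%) and 853 that fell (7.44%). Among those 3115 genes, 716 rose (6.25%) and 349 fell (3.04%) by at least 1 on the log2 scale, and 77 rose (0.672%) and 94 fell (0.820%) by at least 2. The groups did not overlap in 57.2% of all genes, 38.2% with IRE1_KO_ITD higher and 19.0% with it lower. The direction of small changes depended on scaling: the median of all genes was 0.14 above WT as deposited, 0.03 with median-ratio size factors and -0.01 after quantile normalization. Of the calls, 71.1% were higher as deposited, 55.8% with median-ratio size factors (2845 against 2250) and 52.3% after quantile normalization (2541 against 2315). In bulk samples such as these, fewer cells of a type and less RNA per cell cannot be told apart.

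**Figure D1:**
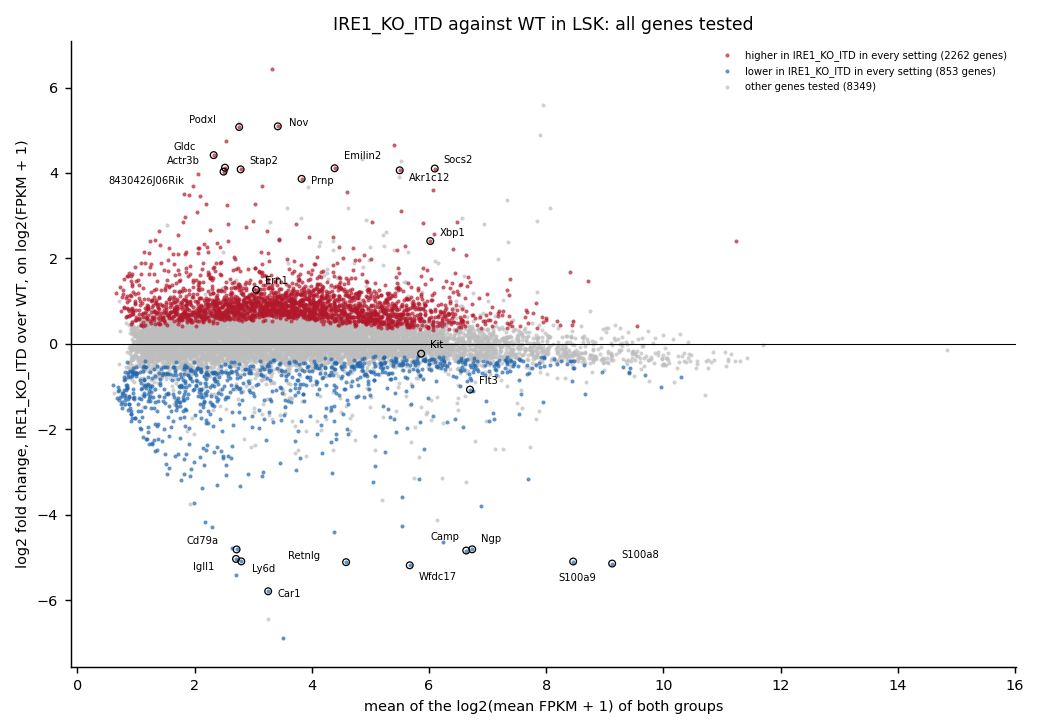
Each point is 1 of the 11464 genes tested in LSK cells, with the average of both groups' log2(mean FPKM + 1) on the horizontal axis and the log2 fold change of IRE1_KO_ITD over WT on the vertical axis. Coloured points are the 2262 higher and 853 lower genes called under every setting; short loci such as miRNA genes are plotted but not named; named genes reach about 5 above and nearly 6 below the WT level.

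Ern1, at chromosome 11, 106397620 to 106487796, encodes IRE1 itself. It had 11, 11.5 and 12.9 FPKM in IRE1_KO_ITD cells, 3.73, 7.54 and 7.56 in ITD, 6.64, 7.52 and 8.71 in IRE1_KO and 4.74, 4.55 and 3.73 in WT cells. Ern1 transcript was thus higher in every IRE1_KO_ITD library than in any WT library, with a log2 fold change of 1.27 ± 0.21 (limma adjusted p = 0.000751). Gene-level FPKM cannot tell deleted from retained exons, and so is no check of the knockout. Against ITD cells the log2 fold change of Ern1 was 0.87 ± 0.21 (adjusted p = 0.0145), and it was 0.58 (adjusted p = 0.0144) without ITD library 1. That call was lost after quantile normalization (adjusted p = 0.0503) and without IRE1_KO_ITD library 3 (adjusted p = 0.057).

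Xbp1, at chromosome 11, 5520641 to 5525993, encodes the transcription factor that IRE1 activates by splicing. Its values were 139, 133 and 169.7 FPKM in IRE1_KO_ITD, 64.8, 43.9 and 50.1 in ITD, 52.1, 46.4 and 47 in IRE1_KO and 36.8, 23.2 and 22.5 in WT cells. All 3 IRE1_KO_ITD libraries lay above all 9 others, a 5.35-fold higher mean than in WT and a log2 fold change of 2.40 ± 0.19 (limma adjusted p = 1.55e-05). It was also 1.47 ± 0.19 higher than in ITD cells (adjusted p = 0.00128; 1.62 without ITD library 1), under every setting. FPKM per gene holds no information on whether the Xbp1 mRNA was spliced.

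Flt3, at chromosome 5, 147330741 to 147400489, encodes the mutated receptor. It fell to 67.6, 68.2 and 76.1 FPKM in IRE1_KO_ITD cells, against 144, 145 and 161 in WT cells, a log2 fold change of -1.07 ± 0.09 (limma adjusted p = 2.03e-05). ITD cells held 55.2, 58.7 and 53.2 FPKM and IRE1_KO cells 189, 219 and 191, so both genotypes with the ITD allele were low. Kit, the receptor used in the sort, had 60.7, 51.1 and 46.1 FPKM in IRE1_KO_ITD and 60.9, 50.7 and 75.6 in WT cells, and these ranges overlapped (log2 fold change -0.23 ± 0.16, adjusted p = 0.257). Sva was one of 3 genes that had set the Ern1-labelled libraries apart in an earlier analysis of these data, so its difference is a description. It had 3.76, 5.12 and 4.52 FPKM in IRE1_KO_ITD, 0, 0.0699 and 0 in ITD, 6.33, 9.51 and 7.36 in IRE1_KO and 0, 0.0688 and 0 in WT cells. Of the other 2, Scamp1, a membrane trafficking gene, averaged 13.6 ± 0.864 FPKM in IRE1_KO_ITD and 8.14 ± 1.46 in WT cells. Tmem39a, an ER membrane protein gene, averaged 10.3 ± 0.787 FPKM in IRE1_KO_ITD and 12.4 ± 1.11 in WT cells; its adjusted p of 0.0835 passed the threshold only after quantile normalization (0.00163) and with median-ratio size factors (0.0125).

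The LSK gate was checked on its markers. Ly6a, which encodes Sca1, fell to 62.1, 85.7 and 84.8 FPKM in IRE1_KO_ITD cells, against 196, 186 and 210.0 in WT cells, and the groups did not overlap (log2 fold change -1.35 ± 0.21, limma adjusted p = 0.000523). Cd34 ran from 399.8 to 431 FPKM in IRE1_KO_ITD and 351 to 426 in WT cells. Cd48, which marks multipotent progenitors more than stem cells, ran from 680.1 to 726 FPKM in IRE1_KO_ITD and 244 to 256 in WT cells. Cd3e of T cells was at most 0.0282 FPKM in IRE1_KO_ITD and 0.302 in WT, and genes of the other lineages are given with their lists.

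STAT5 targets are genes that cytokine receptors switch on through STAT5, among them the receptors' own inhibitors. Of 22 tested members, 8 rose (7 under every setting) and 2 fell, where 31.8% of all genes rose and 12.9% fell. Of the 20 members that reached 1 FPKM in both groups 7 rose and 1 fell. The list's median of 0.19 was close to the 0.14 of all genes. Socs2, a suppressor of cytokine signalling at chromosome 10, 95383903 to 95417321, had 276, 283 and 285 FPKM in IRE1_KO_ITD, 294, 247 and 224 in ITD, 11.9, 10.5 and 7.81 in IRE1_KO and 13, 18.4 and 15.5 in WT cells. It rose 18.1-fold over WT (log2 fold change 4.10 ± 0.16, limma adjusted p = 2.43e-07), at a level like that of ITD cells, from which it differed by 0.15 ± 0.16 (adjusted p = 0.541). Cish, another inhibitor of the pathway, averaged 133 ± 26.3 FPKM in IRE1_KO_ITD and 14.6 ± 3.86 in WT cells (log2 fold change 3.10 ± 0.33, adjusted p = 6.47e-05). Against ITD cells Cish was not called (log2 fold change 0.77 ± 0.33, adjusted p = 0.117). It was called there with short loci left out (adjusted p = 0.0407) and without ITD library 1 (adjusted p = 0.0029).

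Of the other STAT5 targets, Socs1 and Il2ra differed from ITD cells as well as from WT cells. Socs1, a pseudosubstrate inhibitor of JAK kinases, had 10.1, 8.23 and 14.3 FPKM in IRE1_KO_ITD, 3.42, 3.52 and 2.98 in ITD, 6.86, 10.5 and 8.81 in IRE1_KO and 1.27, 2.11 and 1.03 in WT cells. Each genotype with the Ern1 label lay above its partner without it, and the log2 fold change of Socs1 was 2.26 ± 0.21 against WT (limma adjusted p = 3.78e-05) and 1.43 ± 0.21 against ITD (adjusted p = 0.00187). Il2ra, the interleukin-2 receptor alpha chain, reached 17, 8.33 and 14.8 FPKM in IRE1_KO_ITD, against 6.67, 1.13 and 1.07 in ITD and 0 to 0.152 in WT cells. Its log2 fold change was 3.68 ± 0.42 against WT (adjusted p = 9.94e-05) and 2.10 ± 0.42 against ITD (adjusted p = 0.00664), and it held in both comparisons under every setting. Pim2, a survival kinase, had 225, 208 and 261 FPKM in IRE1_KO_ITD, 170.2, 47.6 and 37.1 in ITD and 17.7, 17.3 and 19.7 in WT cells, and rose by 3.59 ± 0.42 over WT (adjusted p = 0.00012). Bcl2l1, which encodes the survival protein BCL-XL, and Ccnd3, a D-type cyclin, rose by 0.95 ± 0.13 and 0.73 ± 0.10. The 2 members that fell were Ccnd1, another D-type cyclin (-2.59 ± 0.31), and Oasl1, which is also an interferon response gene (-1.60 ± 0.36).

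**Figure D2:**
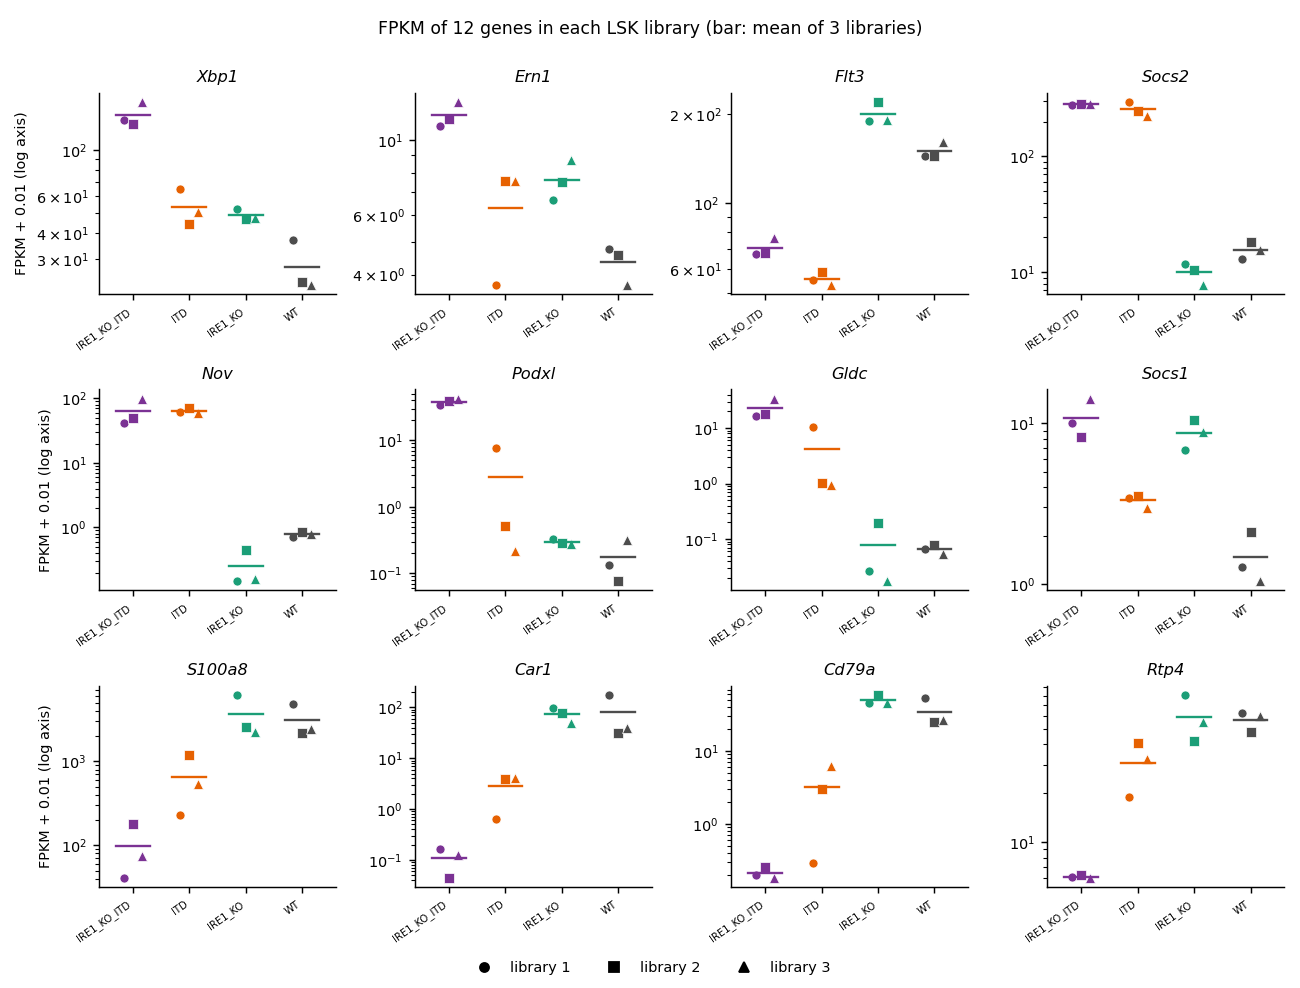
FPKM of 12 genes in each LSK library on a log axis, with a small offset so that values of 0 show, by genotype from IRE1_KO_ITD at the left to WT at the right; points are libraries and bars are group means. Xbp1, Podxl and Gldc are highest in IRE1_KO_ITD, Socs2 and Nov are at the level of ITD, and S100a8, Car1, Cd79a and Rtp4 are lowest in IRE1_KO_ITD.

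Genes of ERK feedback, which growth factor signalling induces to restrain itself, included 5 of 14 tested members that fell (4 under every setting), while the other 9 were not called; the median was -0.36. The 2 members that reached 1 FPKM in WT libraries only had to differ, and of the 12 that reached it in both groups 3 fell. Dusp6, an ERK phosphatase, had 17.6, 29.4 and 23.1 FPKM in IRE1_KO_ITD, 10.2, 24.1 and 22.6 in ITD, 75.4, 106 and 130.1 in IRE1_KO and 54.5, 111 and 133 in WT cells (log2 fold change -1.98 ± 0.37, adjusted p = 0.00165). Spry2, a receptor signalling inhibitor, fell (log2 fold change -1.57 ± 0.23, adjusted p = 0.000372), and Ier3 fell (log2 fold change -1.36 ± 0.35, adjusted p = 0.00807). Both genotypes with the ITD allele were low for Dusp6, and IRE1_KO_ITD did not differ from ITD beyond the spread (log2 fold change 0.34 ± 0.37, adjusted p = 0.559).

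Immediate early genes, such as Fos and Egr1, answer within minutes to signals and to cell handling. Of the 22 members, 0 were called by limma, and at an unadjusted p under 0.05 2 were lower. The list still leaned lower, with a median of -0.66 beside 0.14 for all genes, and only 4 of the 22 changes were positive. In ITD cells the median against WT was -0.88. Library 1 was the lowest of its group for Fos in every genotype: Fos had 357, 1817 and 1242 FPKM in IRE1_KO_ITD, 339, 1985 and 1722 in ITD, 1046, 3014 and 3573 in IRE1_KO and 981, 3044 and 3316 in WT cells. The spread of Fos within a group was thus wider than the difference between groups, and a fit that takes out differences between library numbers called 11 members lower.

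The 10 genes that rose most included, beside Socs2, genes of adhesion, of glycine breakdown and of other classes. Nov, at chromosome 15, 54745910 to 54753762, encodes CCN3, a secreted matrix-associated protein with a role in stem cell maintenance. Its values were 41.4, 50.2 and 99.6 FPKM in IRE1_KO_ITD and 61.4, 71.2 and 59.4 in ITD cells, against 0.137, 0.439 and 0.148 in IRE1_KO and 0.69, 0.844 and 0.77 in WT cells. It rose by 5.09 ± 0.25 over WT (limma adjusted p = 1.55e-06), and both ITD genotypes were high.

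Podxl, at chromosome 6, 31519493 to 31563937, encodes podocalyxin, a sialomucin of the CD34 family. It had 33.8, 38.6 and 42.6 FPKM in IRE1_KO_ITD, 7.7, 0.509 and 0.209 in ITD, 0.318, 0.273 and 0.265 in IRE1_KO and 0.126, 0.0664 and 0.307 in WT cells. The IRE1_KO_ITD libraries stood above every other LSK library, and ITD library 1 was the only other one above 1 FPKM. The log2 fold change of Podxl was 5.08 ± 0.55 over WT (adjusted p = 7.77e-05) and 3.96 ± 0.55 over ITD (adjusted p = 0.00144; 4.86 without ITD library 1).

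Gldc, at chromosome 19, 30098441 to 30175441, encodes glycine decarboxylase, a mitochondrial enzyme that breaks down glycine. It had 16.5, 17.7 and 34.1 FPKM in IRE1_KO_ITD, 10.3, 1.02 and 0.948 in ITD and 0.0568, 0.0691 and 0.043 in WT cells, and rose by 4.42 ± 0.55 over WT (adjusted p = 0.000156) and by 2.67 ± 0.55 over ITD (adjusted p = 0.00716; 3.51 without ITD library 1). Akr1c12, an aldo-keto reductase at chromosome 13, 4268172 to 4279399, had 175, 205 and 171 FPKM in IRE1_KO_ITD, 77.5, 14.1 and 14.1 in ITD, 9.92, 10.9 and 15.4 in IRE1_KO and 8.45, 10.5 and 11.3 in WT cells. Its log2 fold change was 4.06 ± 0.50 over WT (adjusted p = 0.000149) and 2.81 ± 0.50 over ITD (adjusted p = 0.00353; 3.61 without ITD library 1). Akr1c12 has a near copy in Akr1c13, and how shared reads were assigned is not given in the sources used here.

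ITD library 1 was the highest ITD library, and closer to IRE1_KO_ITD than ITD libraries 2 and 3, for Podxl, Gldc, Akr1c12, Stap2, Actr3b and 8430426J06Rik. Actr3b, a subunit of the actin-branching complex at chromosome 5, 25759941 to 25850691, had 15.3, 26.4 and 27.6 FPKM in IRE1_KO_ITD, 12.2, 2.6 and 3.53 in ITD and 0.719, 0.144 and 0.225 in WT cells (log2 fold change 4.12 ± 0.41 over WT, adjusted p = 4.88e-05). Stap2, a signalling adaptor at chromosome 17, 55997074 to 56008402, had 27.8, 21.8 and 32.5 FPKM in IRE1_KO_ITD, 21.3, 4.4 and 3.89 in ITD and 0.976, 0.697 and 0.348 in WT cells (4.08 ± 0.46, adjusted p = 9.16e-05). Against ITD, the log2 fold change of Stap2 was 1.74 ± 0.46 (adjusted p = 0.0211) and that of Actr3b 1.96 ± 0.41 (adjusted p = 0.00816), or 2.45 and 2.53 without ITD library 1; the Stap2 call was lost under several settings and the Actr3b call under none. The unannotated 8430426J06Rik, at chromosome 15, 81242654 to 81251862, had 19.8, 18.5 and 27.5 FPKM in IRE1_KO_ITD, 22.1, 2.73 and 2.86 in ITD and 0.328, 0.498 and 0.327 in WT cells (4.03 ± 0.55 over WT, adjusted p = 0.000258).

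Emilin2, an elastin-associated matrix glycoprotein gene at chromosome 17, 71252172 to 71311556, had 74.2, 62.2 and 115 FPKM in IRE1_KO_ITD, 58.2, 30 and 37.3 in ITD, 10.8, 4.96 and 4.3 in IRE1_KO and 7.31, 2.45 and 2.75 in WT cells (log2 fold change 4.11 ± 0.40, adjusted p = 4.41e-05). Prnp, the prion protein gene at chromosome 2, 131909928 to 131938436, had 47.8, 53.3 and 57 FPKM in IRE1_KO_ITD, 43.7, 22.2 and 20.3 in ITD and 3.74, 2.31 and 2.19 in WT cells (3.86 ± 0.25, adjusted p = 4.21e-06). Against ITD cells, Emilin2 was not called (log2 fold change 0.99 ± 0.40, adjusted p = 0.104; 0.0356 to 0.291 over the settings). Prnp was called (log2 fold change 0.93 ± 0.25, adjusted p = 0.0226), and its call was lost under 6 settings, with an adjusted p of up to 0.0872.

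Among receptor kinases and cytokine receptors, 8 of 27 tested members rose and 9 fell, where 31.8% of all genes rose and 12.9% fell. Of the 24 members that reached 1 FPKM in both groups 8 rose and 6 fell. Only 5 rose without IRE1_KO_ITD library 1, WT library 1 or WT library 2, and 5 rose and 13 fell after quantile normalization (5 and 12 with median-ratio size factors). Il18r1, the interleukin-18 receptor, had 24.1, 23.2 and 26.3 FPKM in IRE1_KO_ITD, 24.8, 7.63 and 8.29 in ITD, 1.06, 2.17 and 2.43 in IRE1_KO and 1.48, 1.62 and 1.83 in WT cells. It rose by 3.27 ± 0.35 over WT (adjusted p = 6.77e-05), and it was not called against ITD (log2 fold change 1.0 ± 0.35, adjusted p = 0.0627), where ITD library 1 lay at the IRE1_KO_ITD level and ITD libraries 2 and 3 below it. Il10ra, the interleukin-10 receptor, rose by 1.19 ± 0.17, and Csf2rb, the common chain for GM-CSF and interleukin-3, rose by 0.93 ± 0.10. Epor, the erythropoietin receptor, fell (-2.17 ± 0.29), and Csf3r, the G-CSF receptor (-0.58 ± 0.11).

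Promoter sequences were read for genes with an entry in the RefSeq table (build GRCm38.p6, a short window around each gene's start), which held 6 of the 10 highest and 8 of the 10 lowest genes. The STAT palindrome TTCNNNGAA, searched on both strands, was in 8.30% of all 32851 promoters, in 2 of those 6 highest genes and in 0 of the 8 lowest. It was in 5 of 19 STAT5 targets with an entry, and in 12 of 36 interferon response genes, a list in which most tested members fell. Of those 5 STAT5 targets, Cish rose, Socs3 was not called (0.41), and Bcl6, Gzmb and Prlr were not among the genes tested. Emilin2 had 1 match and 8430426J06Rik had 2. Il18r1, named for its receptor list, had 2 matches, and Ifitm6, which fell, had 1. Windows for Emilin2 (chr17:71311073-71311111, minus strand) and Il18r1 (chr1:40465772-40465877, plus strand) are shown as examples, 1 with a single match and 1 with a pair, with the palindrome in capitals. A match is a description of these letters and not of binding.
Emilin2: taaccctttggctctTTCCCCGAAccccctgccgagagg
Il18r1: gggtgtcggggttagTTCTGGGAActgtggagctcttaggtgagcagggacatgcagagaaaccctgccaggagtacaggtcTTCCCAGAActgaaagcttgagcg

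Genes of the secretory pathway that XBP1 and ER-associated degradation are known to use did not move as one. Of 69 tested members, 19 rose and 14 fell, near the 31.8% and 12.9% of all genes for the first and above it for the second, and 13 rose and 5 fell under every setting. Without IRE1_KO_ITD library 3 or WT library 1 only 7 fell, and 16 rose and 16 fell after quantile normalization (16 and 18 with median-ratio size factors). The median was 0.10. Stt3b, a catalytic subunit of the enzyme that attaches N-glycans, had 42, 44.9 and 55.3 FPKM in IRE1_KO_ITD, 20.1, 26.9 and 35.3 in ITD, 37.2, 44.5 and 44.4 in IRE1_KO and 20.6, 17.9 and 18.2 in WT cells. It rose by 1.27 ± 0.18 over WT (limma adjusted p = 0.000286) and by 0.79 ± 0.18 over ITD (adjusted p = 0.0105). Edem3 and Sel1l, both of ER-associated degradation, rose by 0.98 ± 0.13 and 0.81 ± 0.13.

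The members that fell included the translocon subunits Sec61g and Sec61b, which form the channel for nascent proteins. Sec61b had 192, 202 and 198 FPKM in IRE1_KO_ITD, 382, 384 and 381 in ITD, 261, 211 and 192 in IRE1_KO and 305, 268 and 287 in WT cells. It fell relative to WT (log2 fold change -0.53 ± 0.10, adjusted p = 0.00189) and relative to ITD (log2 fold change -0.95 ± 0.10, adjusted p = 0.000764), and all ITD libraries stood above all WT libraries. Sec61g fell (-0.64 ± 0.12) and Ostc, a glycosylation subunit (-0.41 ± 0.09). Dnajb9, the chaperone ERdj4 and a textbook XBP1 target, fell furthest: 8.27, 16.3 and 9.93 FPKM in IRE1_KO_ITD, against 20.1, 41.2 and 40.3 in WT cells, with library 1 lowest in both groups (log2 fold change -1.46 ± 0.33, adjusted p = 0.00404). Against ITD cells, 3 members rose and 15 fell (background 14.1% and 7.0%), 1 and 7 under every setting, with a median of -0.19 beside 0.06 for all genes.

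ER chaperones and disulfide isomerases fold secretory proteins inside the ER. Of 24 tested, 11 rose and 2 fell, 6 and 0 under every setting, with a median of 0.22; without WT library 2 only 7 rose. Txndc5, an ER disulfide isomerase, had 43.9, 45.8 and 60.4 FPKM in IRE1_KO_ITD, 24.8, 27.4 and 32.5 in ITD, 47.6, 60.4 and 50.5 in IRE1_KO and 20.3, 14.6 and 12 in WT cells (log2 fold change 1.63 ± 0.19, adjusted p = 9.52e-05). Ero1l, the ER oxidase, rose by 1.14 ± 0.17, Pdia5, another isomerase, by 1.05 ± 0.19, and Dnajc3, a cochaperone that also inhibits the kinase PERK, by 0.87 ± 0.12. Hspa5, the chief ER chaperone BiP, was not called: 211, 377 and 340.3 FPKM in IRE1_KO_ITD and 269, 334 and 387 in WT cells (log2 fold change -0.12 ± 0.30, adjusted p = 0.771). Herpud1 averaged 66.4 ± 1.37 FPKM in IRE1_KO_ITD and 66.2 ± 8.14 in WT cells (0.01 ± 0.14). Against ITD cells 3 members rose and 4 fell, 0 and 2 under every setting.

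Of the stress sensors and their transcription factors, 4 of 13 rose, Xbp1, Ern1, Mbtps1 and Atf6b, and 2 fell, Ddit3 and Creb3. These shares were near the 31.8% and 12.9% of all genes. The number that fell was 1 to 4 over the settings, with 3 higher and 3 lower after quantile normalization and 4 and 4 with median-ratio size factors. Ddit3, which encodes the pro-apoptotic factor CHOP, had 14.9, 18.9 and 17.7 FPKM in IRE1_KO_ITD, against 30.6, 38.9 and 35.3 in WT cells (log2 fold change -0.98 ± 0.21, adjusted p = 0.0029). Among targets of ATF4, the amino acid stress factor, 13 of 30 rose and 2 fell, 6 and 2 under every setting, and 8 rose without IRE1_KO_ITD library 1. After quantile normalization 9 rose and 4 fell, and 9 and 5 with median-ratio size factors. The members that rose included Gars, glycyl-tRNA synthetase (64.9, 67.9 and 79.6 FPKM in IRE1_KO_ITD, 34.5, 39.1 and 44.2 in ITD, 28.9, 27.1 and 21.6 in WT; 1.42 ± 0.13), Slc7a5, an amino acid transporter (1.56 ± 0.26), and Aldh18a1, of proline synthesis (1.02 ± 0.15). Atf4 itself averaged 129 ± 30.4 FPKM in IRE1_KO_ITD and 175 ± 24.8 in WT cells (-0.46 ± 0.20, adjusted p = 0.0839).

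IRE1 can also cut other mRNAs, and the list holds substrates reported in other systems. Of 10 tested, 3 rose (Sparc, Hgsnat, Pdgfrb) and 4 fell (Cd300lf, Bloc1s1, Itgb2, Ergic3), with a median of -0.09. Of all genes, 31.8% rose and 12.9% fell, so the share of the list that rose was near that of all genes. Of the 9 that reached 1 FPKM in both groups 3 rose and 3 fell. Bloc1s1, the substrate best known across cell types, had 114, 127 and 118 FPKM in IRE1_KO_ITD, 144, 144 and 150.0 in ITD, 166, 168 and 154 in IRE1_KO and 183, 158 and 161 in WT cells, and fell (log2 fold change -0.48 ± 0.08, adjusted p = 0.000775). Hgsnat, a lysosomal enzyme gene, had 11.2, 12.7 and 18.8 FPKM in IRE1_KO_ITD, 6.04, 4.25 and 5.81 in ITD, 12.9, 19.8 and 17 in IRE1_KO and 6.32, 4.45 and 4.36 in WT cells, and both Ern1-labelled genotypes were high. It rose by 1.32 ± 0.22 over WT (adjusted p = 0.000712) and by 1.24 ± 0.22 over ITD (adjusted p = 0.00334).

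**Figure D3:**
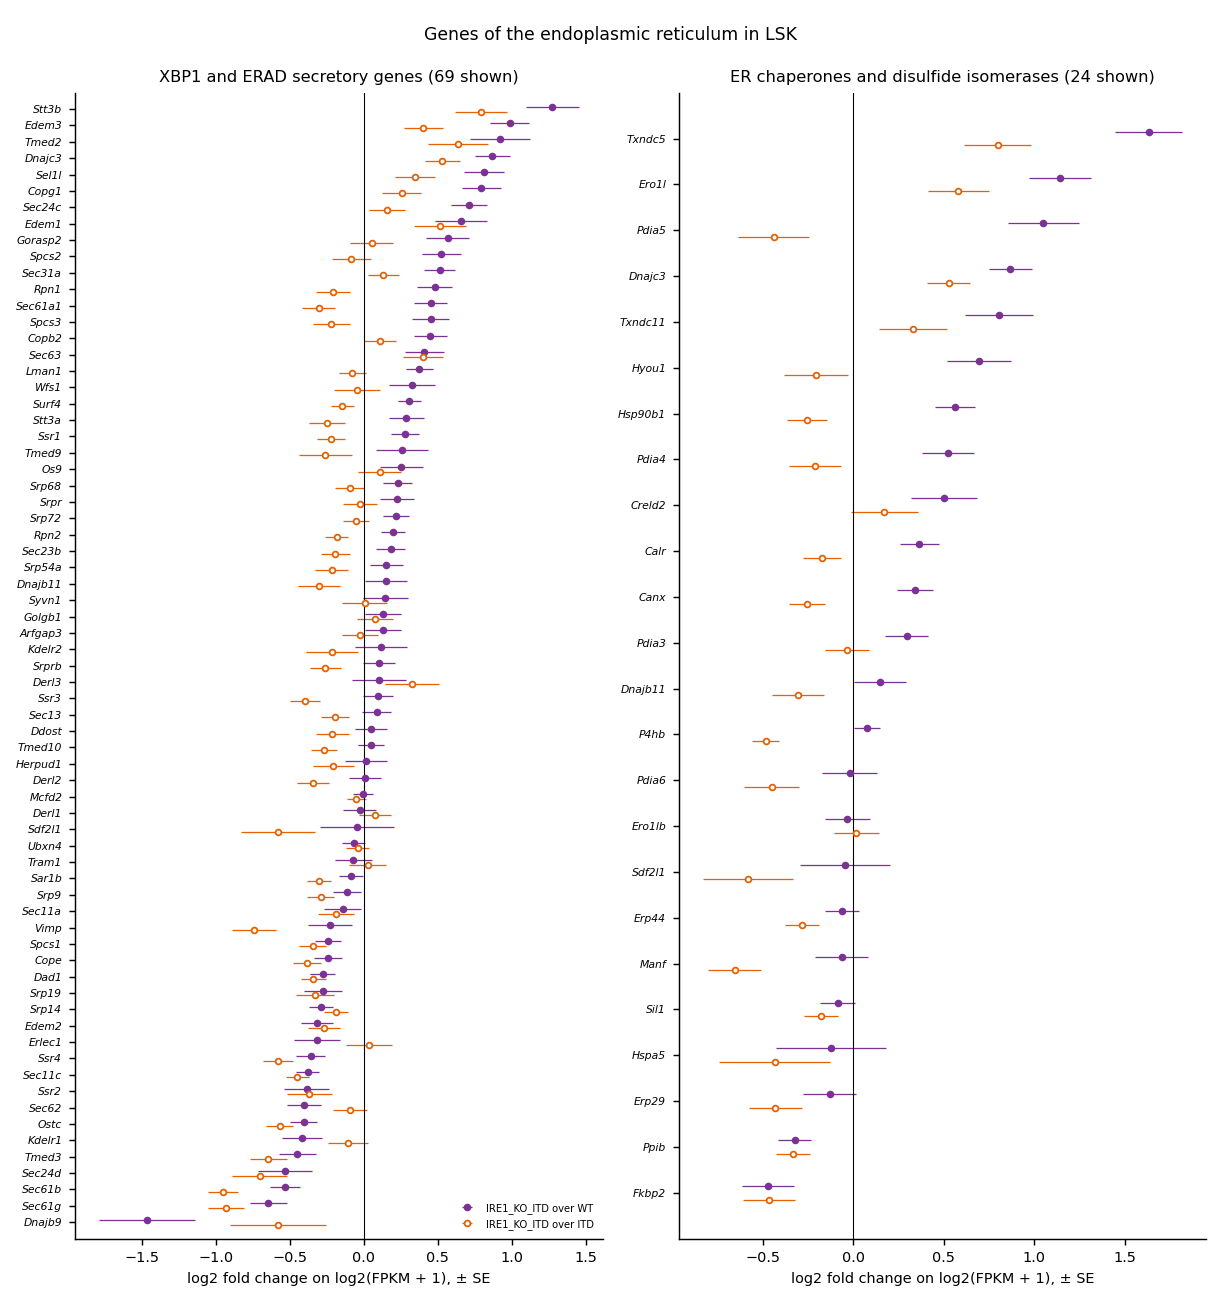
Log2 fold changes of the 69 secretory and degradation genes and the 24 chaperones in LSK cells, each of IRE1_KO_ITD over WT and over ITD, with 1 row a gene, filled points over WT, open points over ITD and bars for the SE. The first list spreads on both sides of 0 against WT and lies mostly under 0 against ITD (median -0.19).

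Promoters of these genes were searched for the letters of the ER stress element, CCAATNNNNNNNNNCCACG, and for the core GCCACGT that XBP1 is known to bind, on both strands. The ER stress element was in 39 of all 32851 promoters (0.119%) and in 8 of the 20 chaperone genes with an entry. The XBP1 core was in 2.58% of all promoters, in 4.67% of the 8509 genes tested here with an entry, and in 18 of 56 secretory genes; it can overlap the E-box CACGTG. The 3 windows shown are examples from chaperone genes that rose under every setting: Dnajc3 (chr14:118937812-118937860, plus strand, ER stress element in capitals), Txndc5 (chr13:38528029-38528065, minus strand) and Pdia5 (chr16:35490874-35490896, minus strand), both with the core in capitals as its reverse complement. Of the other chaperone genes with the ER stress element, Hsp90b1, Calr, Canx and Creld2 rose, and Hspa5, Pdia6 and Ero1lb (listed there as Ero1b) were not called. Of the other chaperone genes with the core, Ppib fell (-0.32) and P4hb was not called (0.08). Sec63, Ssr1, Sec24c, Sec31a and Copg1 rose among secretory genes with the core, while Spcs1, Sec24d and Tmed3 fell. The other tested secretory genes with the core were not called.
Dnajc3: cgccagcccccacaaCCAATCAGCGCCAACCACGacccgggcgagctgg
Txndc5: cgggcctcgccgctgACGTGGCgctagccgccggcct
Pdia5: cgcatgctttggcagACGTGGCa

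Cholesterol synthesis genes, which make sterols for membranes, had 20 of 27 tested members higher, 19 of them under every setting, with a median of 0.90 (quantile normalization 0.77). Sqle, the squalene epoxidase of the pathway, had 47.2, 37.1 and 42.5 FPKM in IRE1_KO_ITD, 37.9, 36 and 38.9 in ITD, 17.5, 25.3 and 14.5 in IRE1_KO and 18.4, 10.2 and 13.6 in WT cells (log2 fold change 1.55 ± 0.21, adjusted p = 0.000267). Both genotypes with the ITD allele lay above both without it. Mvd and Idi1, enzymes of the same pathway, rose by 1.60 ± 0.19 and 1.53 ± 0.21. Against ITD cells 3 members rose and 1 fell, none under every setting, and the median was 0.10.

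Ribosome biogenesis genes make and process ribosomal RNA. Of 42 tested, 31 rose, 22 of them under every setting, with a median of 0.52 (quantile normalization 0.37). Rrp12, a factor of ribosome export and maturation, had 20.3, 13 and 18.7 FPKM in IRE1_KO_ITD, against 5.89, 4.6 and 6.54 in WT cells (1.44 ± 0.23, adjusted p = 0.000589). Utp20 rose by 1.24 ± 0.17 and nucleolin, Ncl, by 0.68 ± 0.09. Mycn, a MYC family transcription factor, had 130.4, 87.2 and 100.2 FPKM in IRE1_KO_ITD, 73, 54.4 and 53.6 in ITD, 28.7, 27.3 and 29.1 in IRE1_KO and 19.5, 20.4 and 21.5 in WT cells. Every genotype lay above WT, IRE1_KO_ITD highest, with a log2 fold change of 2.30 ± 0.15 over WT (adjusted p = 4.21e-06) and 0.80 ± 0.15 over ITD (adjusted p = 0.00481). Myc itself was not called, at 158, 96.5 and 134 FPKM in IRE1_KO_ITD and 120.3, 113 and 144 in WT cells (0.02 ± 0.16, adjusted p = 0.93). Of the 11 tested MYC and MAX network genes, 3 rose and 1 fell, and after quantile normalization 1 rose and 4 fell (2 and 2 with median-ratio size factors).

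S phase genes had 25 of 50 members higher and 2 lower (20 and 1 under every setting; 23 and 4 after quantile normalization; 22 and 5 with median-ratio size factors; median 0.31), and G2 and M phase genes 19 of 38 higher and 1 lower (13 and 0; median 0.38). Chaf1a, of chromatin assembly behind the replication fork, had 23.6, 18.3 and 30.9 FPKM in IRE1_KO_ITD, 9.34, 11.3 and 12.2 in ITD, 29.8, 39.2 and 32 in IRE1_KO and 11, 9.26 and 7.95 in WT cells (1.26 ± 0.19, adjusted p = 0.00041). Ccna2, cyclin A2, had 80.4, 78 and 95.1 FPKM in IRE1_KO_ITD, 45.1, 49.7 and 55.3 in ITD, 85.3, 66.1 and 80.9 in IRE1_KO and 46.2, 34.5 and 34.2 in WT cells (1.13 ± 0.14, adjusted p = 0.00017). Both were also above ITD under every setting, by 1.06 ± 0.19 and 0.74 ± 0.14. Of 16 cyclins and inhibitors, 6 rose, among them Cdk6 (0.93 ± 0.21) and Ccne1 (1.07 ± 0.27), and 4 fell: Ccnd1, Cdkn1b (-0.99 ± 0.16), Cdkn2d (-0.81 ± 0.10) and Cdkn2c. Of these, Ccnd1 reached 1 FPKM in WT libraries only.

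Glycolysis genes had 13 of 21 members higher and 1 lower (9 and 0 under every setting; median 0.39). Slc16a1, a lactate transporter, rose by 1.33 ± 0.16 and Aldoc, an aldolase, by 1.25 ± 0.18. Oxidative phosphorylation subunits had 5 of 57 higher and 10 lower (3 and 3 under every setting), and the number lower was 4 to 34 over the settings, highest with median-ratio size factors (4 higher and 34 lower) and 4 without IRE1_KO_ITD library 1; after quantile normalization 7 were higher and 5 lower. Ndufa4, a subunit of complex IV, had 729, 724 and 642 FPKM in IRE1_KO_ITD, against 1407, 1450.0 and 1375 in WT cells (-1.02 ± 0.10, adjusted p = 5.73e-05). Cytosolic ribosomal protein genes had 33 of 45 members lower, with a median of -0.35; 2 were lower after quantile normalization, where the median was -0.08, and 12, 12 and 11 without IRE1_KO_ITD library 1, IRE1_KO_ITD library 3 and WT library 1. Only Rpl10 (-0.69 ± 0.12) and Rpl27a (-0.53 ± 0.13) fell under every setting.

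Proteasome genes had 4 of 31 members higher and 3 lower, with 0 to 9 lower over the settings (4 and 1 after quantile normalization, 3 and 9 with median-ratio size factors). Antioxidant genes under NRF2 had 8 of 22 higher and 6 lower (6 and 9 with median-ratio size factors). Of the 21 that reached 1 FPKM in both groups 8 rose and 5 fell. For these lists and the apoptosis list below, the shares over all genes were 31.8% higher and 12.9% lower. Gclm, of glutathione synthesis, had 9.84, 14.6 and 17.9 FPKM in IRE1_KO_ITD, 5.1, 2.94 and 3.63 in ITD, 31.7, 34.7 and 34.3 in IRE1_KO and 6.33, 4.95 and 3.76 in WT cells. It was highest in IRE1_KO and raised in IRE1_KO_ITD, by 1.31 ± 0.22 over WT (adjusted p = 0.00090) and by 1.61 ± 0.22 over ITD (adjusted p = 0.00144). Hmox1, haem oxygenase, fell (-1.24 ± 0.26). Of 20 apoptosis and p53 genes, 7 rose and 1 fell, 4 and 0 under every setting, and 4 rose without IRE1_KO_ITD library 1 or 3 or WT library 2. After quantile normalization 4 rose and 3 fell, and 6 and 3 with median-ratio size factors. Bcl2, the survival gene, had 57, 36.6 and 71.7 FPKM in IRE1_KO_ITD, 41.7, 31.7 and 31.2 in ITD, 24.8, 21.8 and 24.2 in IRE1_KO and 14.7, 11.1 and 13.4 in WT cells (1.95 ± 0.21, adjusted p = 7.1e-05).

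**Figure D4:**
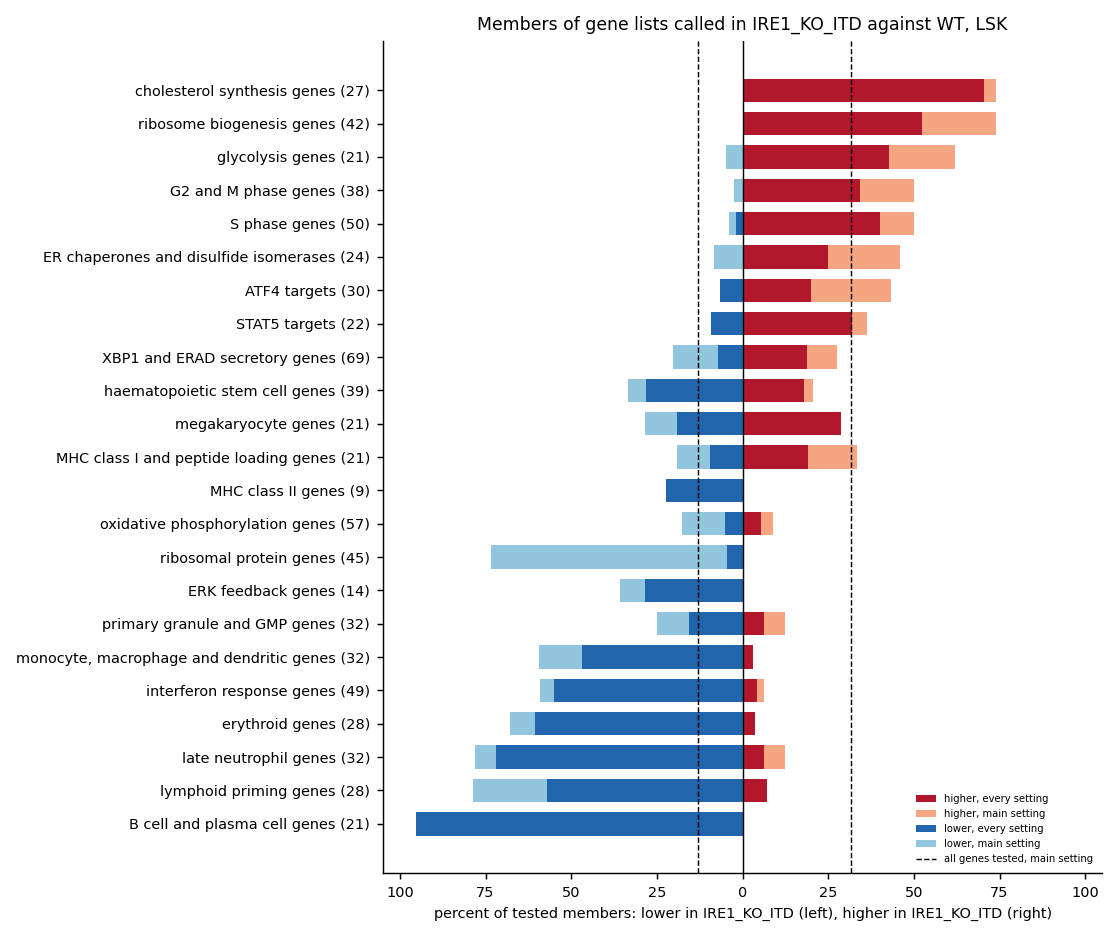
For 23 gene lists, the percentage of tested members higher (right) and lower (left) in IRE1_KO_ITD than in WT LSK cells, with dashed lines at the 31.8% and 12.9% of all genes. Cholesterol, ribosome biogenesis, S phase and G2 and M phase genes reach beyond the line on the higher side, and B cell, late neutrophil, lymphoid, erythroid and interferon genes on the lower side; dark bars are members called under every setting and light bars those whose call was lost under at least 1 setting.

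The largest falls were in genes of mature blood lineages. Late neutrophil genes encode granule and calcium-binding proteins of maturing neutrophils. Their summed FPKM was 460.1, 817 and 576 in IRE1_KO_ITD, 903, 2776 and 1436 in ITD, 12516, 6028 and 5210.0 in IRE1_KO and 10696, 5391 and 5484 in WT libraries. Of the 32 tested, 9 reached 1 FPKM in WT libraries only and so had to differ; of the 23 that reached it in both groups, 16 fell and 4 rose.

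S100a8, which forms calprotectin with S100a9, lies at chromosome 3, 90669071 to 90670034. It had 41.3, 181 and 73.9 FPKM in IRE1_KO_ITD, 233, 1191 and 532 in ITD, 6191, 2538 and 2222 in IRE1_KO and 4761, 2173 and 2459 in WT cells, and fell (log2 fold change -5.14 ± 0.65, limma adjusted p = 0.000177). S100a9, at chromosome 3, 90692630 to 90695721, fell (-5.10 ± 0.63), Retnlg, at chromosome 16, 48872608 to 48874498 (-5.11 ± 0.52), Camp, at chromosome 9, 109847377 to 109849456 (-4.84 ± 0.57) and Ngp, at chromosome 9, 110419808 to 110423012 (-4.81 ± 0.55). IRE1_KO and WT cells held comparable levels of S100a8, and ITD cells were between them and IRE1_KO_ITD. Against ITD cells, Camp fell (log2 fold change -2.50 ± 0.57, adjusted p = 0.0119) and Ngp (-2.36 ± 0.55, adjusted p = 0.0123) under every setting, while the calls of S100a8, S100a9 and Retnlg were lost under some. Pygl, liver-type glycogen phosphorylase, was a member that rose (53.7, 53.5 and 52.9 FPKM in IRE1_KO_ITD, 26.4, 24.3 and 28.4 in WT; 0.99 ± 0.09). Wfdc17, a whey acidic protein family gene at chromosome 11, 83704056 to 83706269, had 5.75, 8.2 and 8.52 FPKM in IRE1_KO_ITD, 32.9, 115 and 104 in ITD, 189, 288 and 237 in IRE1_KO and 313, 287 and 313 in WT cells. It fell relative to WT (log2 fold change -5.19 ± 0.37, adjusted p = 9.16e-06) and relative to ITD (log2 fold change -3.15 ± 0.37, adjusted p = 0.00108; -3.72 without ITD library 1). Wfdc18 is a gene of the same family, and how any reads that fit both were assigned is not given in the sources used here.

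Primary granule and progenitor genes were called less widely. Of 32 tested, 4 rose and 8 fell (2 and 5 under every setting), and 5 fell without IRE1_KO_ITD library 1 or WT library 1; with median-ratio size factors 2 rose and 9 fell. Mpo, myeloperoxidase, had 564, 485 and 1013 FPKM in IRE1_KO_ITD and 1243, 573 and 783 in WT cells, and Elane had 117, 144 and 345 in IRE1_KO_ITD and 867, 175 and 200.5 in WT cells. For both, the groups overlapped and no call was made (adjusted p = 0.488 and 0.317).

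B cell and plasma cell genes had a summed FPKM of 66.9, 69.5 and 69.4 in IRE1_KO_ITD, 75.6, 103 and 152 in ITD, 393, 467 and 406 in IRE1_KO and 533, 283 and 295 in WT libraries. Of 21 tested, 20 fell, all under every setting, but 17 of the 21 reached 1 FPKM in WT libraries only; of the other 4, 3 fell. Cd79a, a signalling chain of the B cell receptor at chromosome 7, 24897497 to 24901858, had 0.188, 0.248 and 0.173 FPKM in IRE1_KO_ITD, 0.278, 3.02 and 6.17 in ITD, 45.2, 59 and 46.1 in IRE1_KO and 53.2, 24.9 and 26.6 in WT cells (-4.81 ± 0.49, adjusted p = 5.71e-05). Ly6d, at chromosome 15, 74762056 to 74763567, a marker of early B lineage progenitors, fell (-5.09 ± 0.70), and Igll1, at chromosome 16, 16860671 to 16863985, the surrogate light chain (-5.04 ± 0.72). ITD library 1 held less of these transcripts than ITD libraries 2 and 3, and Cd79a differed from ITD cells only without it and under 2 other settings (-1.47 ± 0.49, adjusted p = 0.0564; -2.16, adjusted p = 0.00143, without it).

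Lymphoid priming genes mark progenitors that begin the lymphoid programme. Of 28 tested, 22 fell and 2 rose; 8 reached 1 FPKM in WT libraries only, and of the 20 that reached it in both groups 14 fell and 2 rose. Dntt, which adds nucleotides at antigen receptor joints, had 37.1, 68.4 and 38.6 FPKM in IRE1_KO_ITD, 46.2, 78.4 and 69.3 in ITD, 231, 273 and 198 in IRE1_KO and 236, 125 and 199 in WT cells (-1.95 ± 0.29, adjusted p = 0.00041). Satb1, a chromatin organiser of lymphoid progenitors, fell (-2.39 ± 0.24), and Il12a (-2.07 ± 0.20). The 2 that rose were Tcf3, which encodes E2A (1.17 ± 0.20), and Tcf7 (1.01 ± 0.24), and Tcf3 was high in both Ern1-labelled genotypes (53.3, 53.5 and 67.2 FPKM in IRE1_KO_ITD and 63, 85.6 and 84.1 in IRE1_KO, against 27.4, 26.2 and 21.7 in WT). T and NK cell genes had 5 of 9 members higher and 2 lower (5 and 1 after quantile normalization), and of the 6 that reached 1 FPKM in both groups 5 rose and 0 fell, so both lower members had reached it in WT libraries only, while Cd3e stayed at or near 0 as above; those that rose were Thy1, which early progenitors also carry, Tcf7, Lat, Lck and Nkg7.

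Erythroid genes had 19 of 28 tested members lower and 1 higher, with 11 that reached 1 FPKM in WT libraries only; of the other 17, 8 fell and 1 rose. Car1, carbonic anhydrase of red cell precursors at chromosome 3, 14766214 to 14808365, had the lowest fold change of all named genes: 0.154, 0.0354 and 0.113 FPKM in IRE1_KO_ITD, 0.63, 3.9 and 4.09 in ITD, 95.6, 76.2 and 49.9 in IRE1_KO and 175, 30.7 and 39.7 in WT cells (-5.79 ± 0.59, adjusted p = 5.51e-05). WT library 1 held far more Car1 than WT libraries 2 and 3. Klf1, the erythroid transcription factor, fell (-2.78 ± 0.42), and Gata1 (-2.53 ± 0.27). Tfrc, the transferrin receptor, which dividing cells use in general, was the member that rose (0.81 ± 0.19). Megakaryocyte genes had 6 of 21 members higher and 6 lower, or 5 and 4 of the 18 that reached 1 FPKM in both groups. Of all genes, 31.8% were higher and 12.9% lower. F2r, a thrombin receptor, had 111, 87.4 and 76.4 FPKM in IRE1_KO_ITD, 42.2, 22.9 and 19.2 in ITD, 13.3, 19.8 and 23.3 in IRE1_KO and 11.7, 20.7 and 27.5 in WT cells (2.21 ± 0.34, adjusted p = 0.000494), while Pf4, a platelet chemokine, fell (-1.90 ± 0.41). Itga2b rose by 0.80 ± 0.17.

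Monocyte, macrophage and dendritic cell genes had 19 of 32 tested members lower and 1 higher; of the 26 that reached 1 FPKM in both groups 14 fell and 1 rose. Ms4a6c had 6.07, 8.61 and 13.7 FPKM in IRE1_KO_ITD, 29, 55.2 and 69.4 in ITD, 48.2, 31.3 and 27.9 in IRE1_KO and 48.9, 36.9 and 42.4 in WT cells (-2.12 ± 0.33, adjusted p = 0.000571). Siglech, of plasmacytoid dendritic cells, and C1qa, of macrophages, were listed at 0 in all 3 IRE1_KO_ITD libraries, against 2.22, 1.54 and 1.77 FPKM and 3.04, 1.27 and 1.09 FPKM in WT. Against ITD cells 22 of the 32 fell and 1 rose (18 and 0 under every setting). Basophil and mast cell genes had 2 of 8 members higher, Cyp11a1 (1.92 ± 0.19) and Mcpt8 (1.48 ± 0.21), and 2 lower. Of 9 endothelial and stromal genes, 4 rose and 2 fell (4 and 1 of the 8 that reached 1 FPKM in both groups), with 2 higher without IRE1_KO_ITD library 1 or WT library 2. Whether the mature-lineage transcripts in the WT libraries come from a few mature cells was not tested.

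Stem cell genes leaned lower, with members on both sides. Of 39 tested, 8 rose and 13 fell (7 and 11 under every setting), where 31.8% of all genes rose and 12.9% fell. The median was -0.24 beside 0.14 for all genes, and 14 of the 39 changes were positive. Of the 37 that reached 1 FPKM in both groups 8 rose and 11 fell. After quantile normalization 8 rose and 16 fell. Ndn, an imprinted growth suppressor, had 0.104, 0.144 and 0.0576 FPKM in IRE1_KO_ITD, 0.264, 0.629 and 0.845 in ITD, 6.67, 12.2 and 8.74 in IRE1_KO and 6.25, 11.9 and 10 in WT cells (-3.20 ± 0.24, adjusted p = 1.11e-05). Pdzk1ip1 (-2.0 ± 0.25), Tek, the angiopoietin receptor TIE2 (-1.40 ± 0.24), and Procr, the stem cell marker EPCR (-1.17 ± 0.25), fell as well. Fgd5, also used as a stem cell marker, rose: 2.79, 3.8 and 2.74 FPKM in IRE1_KO_ITD, 1.84, 1.15 and 0.921 in ITD, 1.8, 1.68 and 2.84 in IRE1_KO and 1.25, 1.72 and 1.27 in WT cells (0.76 ± 0.19, adjusted p = 0.00692; 0.84 ± 0.19 over ITD, adjusted p = 0.0105). Runx1 (0.70 ± 0.15) and Gata3 (1.10 ± 0.23) rose, and Hlf (-0.29 ± 0.23, adjusted p = 0.339) and Mecom (0.53 ± 0.26, adjusted p = 0.112) were not called. Against ITD cells 11 members rose and 3 fell, 5 and 0 under every setting, with a median of 0.37.

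Most interferon response genes fell. Of 49 tested, 29 fell (27 under every setting) and 3 rose, with a median of -0.85 beside 0.14 for all genes. Of the 45 members that reached 1 FPKM in both groups, 25 fell and 3 rose. Rtp4, a chaperone for receptors that interferon induces, had 6.05, 6.23 and 6.00 FPKM in IRE1_KO_ITD, 18.9, 41 and 32.4 in ITD, 80.9, 42.2 and 54.8 in IRE1_KO and 62.6, 47.7 and 59.9 in WT cells. All 3 IRE1_KO_ITD libraries lay under every other LSK library, with a log2 fold change of -3.02 ± 0.27 against WT (limma adjusted p = 2.98e-05) and -2.10 ± 0.27 against ITD (adjusted p = 0.00128). Irf7, the factor that amplifies the response, had 8.13, 7.59 and 10.8 FPKM in IRE1_KO_ITD, 25.1, 86.9 and 61.2 in ITD, 54.9, 45.5 and 59.8 in IRE1_KO and 50.3, 37.6 and 46.6 in WT cells (-2.22 ± 0.34, adjusted p = 0.000537). Ifi44 fell (-3.07 ± 0.32), Usp18, a brake on the receptor (-2.25 ± 0.26), and Isg15, a ubiquitin-like modifier (-2.11 ± 0.26).

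Against the same WT libraries, 6 members of the interferon list rose and 3 fell in ITD cells, where 15.5% and 7.37% of all genes did. In IRE1_KO cells 2 rose while the rest were not called, where 21.2% of all genes rose and 2.93% fell. Side by side, the log2 fold changes against WT were -3.02 in IRE1_KO_ITD, -0.92 in ITD and 0.02 in IRE1_KO for Rtp4. For Ifi44 they were -3.07 in IRE1_KO_ITD, -0.45 in ITD and 0.02 in IRE1_KO. Against ITD cells directly, 31 of the 49 fell, 19 of them under every setting, where 7.0% of all genes fell. The members that rose against WT were the immunity-related GTPases Igtp (1.21 ± 0.14) and Irgm2 (0.83 ± 0.23) and the guanylate-binding protein Gbp7 (0.52 ± 0.11), which interferon gamma is known to induce; Igtp was at 46.3 ± 5.12 FPKM in IRE1_KO_ITD, 44.5 ± 5.21 in ITD and 19.5 ± 2.39 in WT cells.

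**Figure D5:**
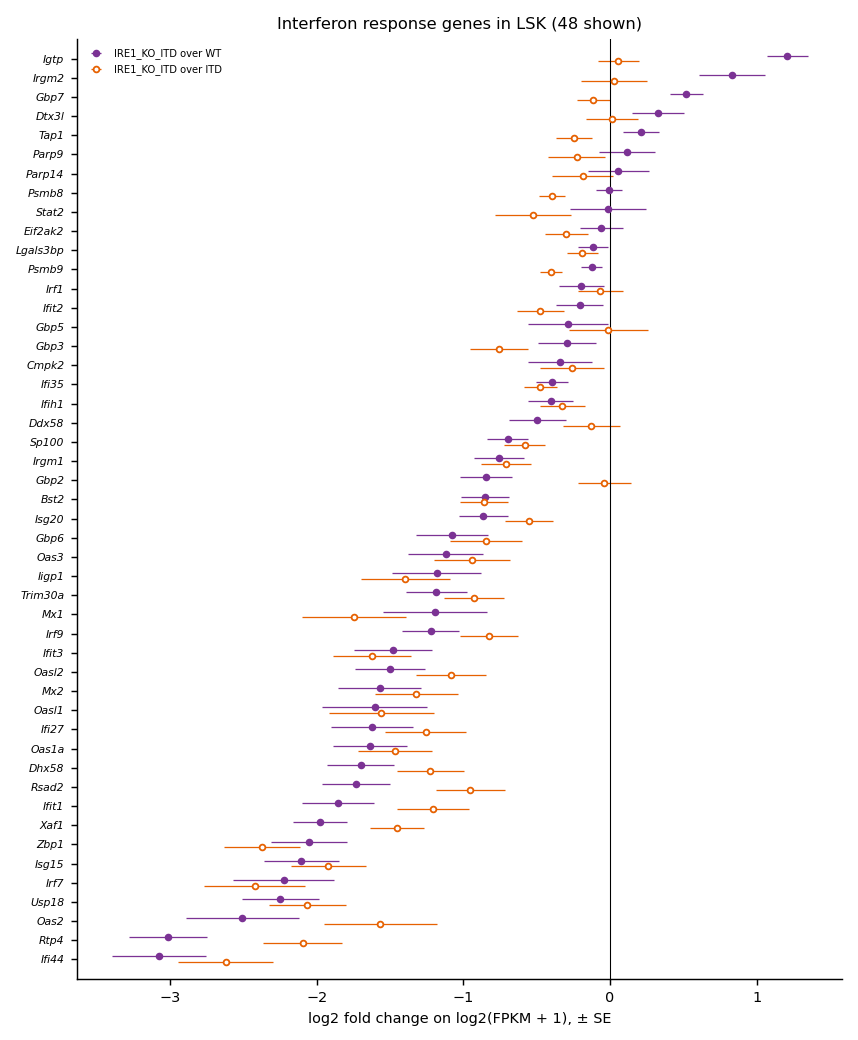
Log2 fold changes of all but 1 of the 49 tested interferon response genes in LSK cells, of IRE1_KO_ITD over WT and over ITD, with 1 row a gene, filled points over WT, open points over ITD and bars for the SE. Most points lie under 0 in both comparisons, and Igtp is at 1.21.

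MHC class II genes, which present peptides from outside the cell, had 2 of 9 tested members lower, H2-Ob (-1.01 ± 0.20) and H2-DMa (-0.64 ± 0.17), with 4 lower under both other scalings and 7 in a fit of the 6 libraries alone. The median was -0.64 beside 0.14 for all genes, and only 1 of the 9 changes was positive. H2-Aa had 18.2, 17.6 and 30 FPKM in IRE1_KO_ITD, 85.3, 537 and 695 in ITD, 31.2, 40.1 and 42.5 in IRE1_KO and 32.8, 16.7 and 15.2 in WT cells. ITD cells were the high group, and IRE1_KO_ITD overlapped WT (0.06 ± 0.63, adjusted p = 0.947) and lay -3.84 ± 0.63 from ITD (adjusted p = 0.00277). Cd74, the invariant chain, had 40.7, 31.9 and 61.6 FPKM in IRE1_KO_ITD, 249, 1342 and 1769 in ITD and 152, 85.8 and 86 in WT cells (adjusted p = 0.109 against WT). For Cd74 the IRE1_KO_ITD and WT libraries did not overlap. Its p-value comes from the fit of all 12 LSK libraries, so it also holds the wide spread of the ITD group. Against ITD, 7 of the 9 members fell, 6 under every setting. Monocyte and dendritic cell transcripts moved with them: the summed FPKM of their list was 963, 1061 and 1118 in IRE1_KO_ITD, 1689, 3539 and 4175 in ITD, 1927, 1610.4 and 1731 in IRE1_KO and 1908, 1632 and 1705 in WT libraries. Within it, Ly86 had 1.75, 2.89 and 6.33 FPKM in IRE1_KO_ITD and 14.4, 43.6 and 50.6 in ITD, Csf1r 1.54, 2.1 and 3.7 in IRE1_KO_ITD and 5.1, 19.5 and 23.2 in ITD, and Siglech 0, 0 and 0 in IRE1_KO_ITD and 0.0159, 3.01 and 2.34 in ITD, with ITD library 1 the lowest of its group for each as for H2-Aa. Their part in the class II result was not tested.

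MHC class I and peptide loading genes had 7 of 21 members higher and 4 lower (4 and 2 under every setting), where 31.8% of all genes were higher and 12.9% lower. Without IRE1_KO_ITD library 3, 4 were higher, and 4 rose and 6 fell with median-ratio size factors. Nlrc5, the activator of class I genes, rose by 1.12 ± 0.18, and the Qa region gene H2-Q7 by 1.76 ± 0.32; the near copy H2-Q8 rose by 2.82 ± 0.47, and how their shared reads were assigned is not given in the sources used here. Of 6 Ifitm genes, which encode antiviral membrane proteins, 1 rose and 2 fell (2 and 2 after quantile normalization). Ifitm1 had 5294, 5884 and 5476 FPKM in IRE1_KO_ITD, 6428, 5512 and 5074 in ITD, 756, 607 and 714 in IRE1_KO and 924, 1188 and 1052 in WT cells (2.40 ± 0.13, adjusted p = 1.79e-06), and both ITD genotypes were high. Ifitm6 fell (-2.68 ± 0.40) and Ifitm7 (-1.14 ± 0.15).

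The same genotypes were set against the single lesions over all genes. IRE1_KO_ITD differed from ITD in 21.1% of genes (1621 higher, 14.1%; 802 lower, 7.0%), and without ITD library 1 in 1601 higher and 722 lower. It differed from IRE1_KO in 31.3% (1394 higher, 12.2%; 2191 lower, 19.1%). ITD differed from WT in 22.8% and IRE1_KO from WT in 24.1%, and these share their WT libraries with the comparison above. A departure from additivity, where the effect of ITD differs with the Ern1 label, was called in 6.94% of genes, 173 higher (1.51%) and 623 lower (5.43%). Those counts were 22 and 71 with sex as a covariate, and 456 and 1038 without ITD library 1. Genes whose value lay near that of ITD cells included Socs2 (log2 fold change against WT 4.10 in IRE1_KO_ITD, 3.95 in ITD and -0.59 in IRE1_KO) and Nov (log2 fold change 5.09 in IRE1_KO_ITD, 5.20 in ITD and -0.52 in IRE1_KO). Podxl had 5.08 in IRE1_KO_ITD, 1.11 in ITD and 0.15 in IRE1_KO, and Xbp1 had 2.40 in IRE1_KO_ITD, 0.94 in ITD and 0.83 in IRE1_KO.

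GMP cells, the granulocyte and macrophage progenitors of the myeloid line, were sorted from the same genotypes. There IRE1_KO_ITD differed from WT in 27.8% of 11906 genes (2495 higher, 21.0%; 809 lower, 6.79%). The effect in LSK differed from that in GMP in 15.7% of genes, 899 higher (7.55%) and 972 lower (8.16%). B cell genes fell in GMP too (20 of 21; median -1.98), as did late neutrophil genes (21 of 32; median -2.17). Of the secretory and degradation genes, 40 of 69 fell and 1 rose in GMP, with a median of -0.46 beside 0.10 in LSK, and of the chaperones 14 of 24 fell. Interferon response genes had 13 of 49 lower and 9 higher in GMP. Cholesterol genes rose in both populations (17 of 27 in GMP), and ribosome biogenesis genes in 17 of 42 members in GMP. Xbp1 rose in GMP to 125, 182 and 179.5 FPKM in IRE1_KO_ITD, against 110.0, 93.1 and 100.5 in WT (0.66 ± 0.19, adjusted p = 0.0158), and the change in LSK exceeded that in GMP by 1.75 ± 0.27 (adjusted p = 0.000369).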

How the data were processed

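RNA of sorted LSK and GMP cells was sequenced in 24 libraries. The authors deposited FPKM per gene symbol; reads were handled with STAR and Cufflinks on mm10, per the submitters' processing notes, whose versions those notes do not name. The labels' protocols name SMART-Seq v4 and Nextera XT, whereas the series text names a stranded TruSeq kit, which was not settled. Library sex came from Xist and Y-linked transcripts. Log2(FPKM + 1) of the 12 LSK libraries was fitted with limma 3.58.1 (R 4.3.3), 1 mean per genotype, for genes of at least 1 FPKM in at least 3 of the 6 libraries compared. Adjustment was Benjamini-Hochberg, threshold 0.05. Tables and figures used Python 3.11.15, numpy 2.4.6, pandas 2.3.3 and matplotlib 3.10.9. On simulated data of 11549 genes, the fit of IRE1_KO_ITD against WT recovered 80% of genes changed by 1 on the log2 scale and 98% of those changed by 2, and called 6 unchanged genes. The simulation used independent noise and changed 100 genes at each size, all with at least 1 FPKM in each of the 6 libraries. It held no scaling shift, outlying library or effect of library number, so these shares need not hold for the real data.

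The 15 other settings were quantile normalization, median-ratio size factors, no filter, a pseudocount of 0.1, short loci left out, the replicate block, a sex covariate, the 6 libraries alone, no IRE1_KO libraries, and each of the 6 libraries left out. The 39 gene lists held 1128 entries, of which 1105 matched (3 by another name). Members and lists were chosen with earlier results of these data known. Named were Ern1, Xbp1, Flt3, Kit, Sva, Scamp1 and Tmem39a; the 10 highest and 10 lowest genes called under every setting, with groups apart, a log2 change of at least 1 and, in whichever group was higher, mean FPKM no less than 5, short loci left out; and up to 4 members per list with the smallest p called under every setting, or up to 2 where none was. Other genes were named after their values were seen, and a few that the rule names are not reported here.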

Additional observations from a re-analysis of the deposited data

Results flagged for a closer look

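Of 145 genes given by the naming rule and reported, 59 had an IRE1_KO_ITD effect in LSK cells that differed from that in GMP cells, 31 upward and 28 downward, tested as a difference between both effects in a limma fit over all 24 libraries; 15.7% of the 11906 genes of that fit were called. Most of the 145 were chosen for their change in the same LSK libraries, so their share called cannot be set against that of all genes. The call held under every setting for 35 of the 59. Differences below are LSK minus GMP on the log2 scale. A call marked as lost under a setting was lost under at least 1, and those of Edem3 and Gars were lost under most. The highest adjusted p over the settings was 0.108 for Edem3, 0.12 for Gars and 0.0568 for Aars.

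Among the genes always named and the highest and lowest, the differences were 1.75 for Xbp1 (adjusted p = 0.000369), 4.18 for Podxl (adjusted p = 0.000267), 3.59 for Gldc (adjusted p = 0.00098), 3.11 for Prnp (adjusted p = 4.57e-05) and 0.78 for Tmem39a (adjusted p = 0.00131). 8430426J06Rik differed by 2.88 (adjusted p = 0.00438), which was lost with a pseudocount of 0.1 (adjusted p = 0.12). Actr3b differed by 1.81 (adjusted p = 0.0302), which was lost under 10 settings (adjusted p up to 0.23). The change was lower in LSK for Flt3 (-2.48, adjusted p = 0.00211), Socs2 (-1.46, adjusted p = 0.0171) and Wfdc17 (-6.04, adjusted p = 1.43e-05).

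Of the ER and ATF4 lists, genes with a higher change in LSK were Dnajc3 (1.75), Pdia5 (2.22), Stt3b (1.58), Txndc5 (1.52), Ero1l (1.24), Edem3 (0.82, lost under a setting), Gars (0.95, lost under a setting) and Aars (0.76, lost under a setting). Signalling and receptor genes with a higher change in LSK were Il2ra (3.38), Il18r1 (2.20, lost under a setting) and Socs1 (1.34, lost under a setting). Cell cycle genes with a higher change in LSK were Ccna2 (1.19), Ccnd3 (1.15), Uhrf1 (1.09), Bub1b (0.83), Mki67 (0.79), Nek2 (0.79) and Rrm1 (0.59, lost under a setting). Other genes with a higher change in LSK were Slc16a1 (1.06), Pygl (1.03), Abcc1 (0.77, lost under a setting), Psmd2 (0.70, lost under a setting), Igtp (0.63, lost under a setting) and Cox5a (0.58). Among genes of blood lineages and stem cells, the change was lower in LSK for Wfdc18 (-4.28), Ndn (-3.19), Satb1 (-2.54), Ms4a6c (-2.50), Il12a (-2.37), Ms4a6b (-2.13), Lgmn (-1.61), Apoe (-1.58, lost under a setting), Cd4 (-1.51, lost under a setting), Emcn (-1.36, lost under a setting), Ikzf2 (-0.69, lost under a setting) and Trib2 (-0.64, lost under a setting). Among interferon, Ifitm and class II genes it was lower for Ifi44 (-2.57, lost under a setting), Ifitm6 (-2.22, lost under a setting), Ifitm1 (-1.39, lost under a setting), H2-DMa (-1.32), Xaf1 (-1.31, lost under a setting) and H2-Ob (-1.12, lost under a setting). The other genes with a lower change in LSK were Ccnd1 (-1.96), Aldoc (-0.89, lost under a setting), Cdkn1b (-0.83, lost under a setting), Ndufa4 (-0.81), Bloc1s1 (-0.65), Rpl27a (-0.62) and Uqcrh (-0.60, lost under a setting).

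In GMP cells, Podxl had 0.522, 0.767 and 1.52 FPKM in IRE1_KO_ITD and 0, 0.0256 and 0.0256 in WT. Flt3 had 20.2, 25.5 and 28.5 FPKM in IRE1_KO_ITD and 4.54, 12.8 and 10.5 in WT GMP cells, and Socs2 had 61.2, 83.9 and 79 in IRE1_KO_ITD and 0.197, 0.976 and 0.705 in WT. Wfdc17 had 21.5, 30.5 and 8.89 FPKM in IRE1_KO_ITD and 8.21, 12 and 8.83 in WT GMP cells (log2 fold change 0.86 ± 0.46, adjusted p = 0.17).

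For 12 of these genes, the ITD effect in LSK cells differed with the Ern1 label, where 6.94% of all genes were called. It was higher with the label for Podxl (3.82, adjusted p = 0.0173), Igj (2.06, adjusted p = 0.036), F2r (1.77, adjusted p = 0.0482) and Cyp11a1 (1.39, adjusted p = 0.0152). It was lower for Wfdc17 (-2.78, adjusted p = 0.013), Ifi44 (-2.64, adjusted p = 0.00889), Rtp4 (-2.12, adjusted p = 0.00994), Satb1 (-2.07, adjusted p = 0.00761), Ms4a6c (-2.02, adjusted p = 0.0292), Xaf1 (-1.25, adjusted p = 0.018), Ndufa4 (-0.57, adjusted p = 0.0411) and Nolc1 (-0.53, adjusted p = 0.0397). Every one of the 12 calls was lost under at least 1 setting, and 11 were lost with sex as a covariate, among them Podxl (adjusted p = 0.0938), Wfdc17 (adjusted p = 0.0971) and Rtp4 (adjusted p = 0.0521). The IRE1_KO libraries in that test are those with the header tag 1ng, and its part cannot be told apart.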

How the results depend on the processing

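In the comparison of IRE1_KO_ITD with WT LSK cells, 140 of the 146 genes given by the naming rule were called, and the call changed under at least 1 setting for 3 of the 146: Egr3, Klf4 and Tmem39a. No named gene reversed its direction while called. The rule took the top genes, and list members where any qualified, from those called under every setting. The stability of the named genes was therefore set by their choice. Over all genes tested, 3115 of the 5124 calls held under every setting. The number higher stayed within 1.5 times under every setting (2835 to 3502 with 1 library left out), while the number lower was 2315 after quantile normalization, 2250 with median-ratio size factors and 1048 to 1284 with 1 library left out. Of 1140 alternative counts for the gene lists, 145 moved by over 1.5 times.

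Against ITD, the number higher was 983 after quantile normalization, 2782 with short loci left out and 910 to 1601 with 1 library left out, lowest without IRE1_KO_ITD library 3. The number lower was 408 with short loci left out and 355 to 722 with 1 library left out. Against IRE1_KO, 2470 were higher with short loci left out and 920 to 1253 with 1 library left out, lowest without IRE1_KO_ITD library 1, and 1700 to 1986 were lower. Departures from additivity with a higher value numbered 400 with short loci left out, 22 with sex as a covariate and 76 to 456 with 1 library left out. Those with a lower value numbered 337 after quantile normalization, 321 with median-ratio size factors, 297 with short loci left out, 71 with sex as a covariate and 283 to 1038 with 1 library left out. The LSK effect exceeded the GMP effect in 578 genes with short loci left out and in 558 to 1160 with 1 library left out, and fell short of it in 642 to 1005. The cause of these shifts was not tested.

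Over all genes, library numbers gave no clear pairing: deviations of IRE1_KO_ITD and WT libraries with the same number correlated at 0.032, 0.102 and -0.039. IRE1_KO_ITD library 1 correlated at 0.115 with ITD library 1 and 0.109 with IRE1_KO library 1. IRE1_KO_ITD library 3 reached 0.103 with ITD library 2. For immediate early genes library number did matter, as library 1 was lowest for Fos in every genotype and the block called 11 members lower. With the replicate number as a block, 3659 genes were higher and 1527 lower against WT, 1590 and 811 against ITD, and 1438 and 2231 against IRE1_KO. The block gave 146 and 513 departures from additivity, and 769 and 888 differences between LSK and GMP.

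The deposited values hold no counts, so depth is known only as a ratio between libraries, and no counting interval is given. With 3 libraries a group, an exact two-sided permutation test of 1 gene cannot go below 0.1, and each call rests on the spread that limma shares over all genes.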
